A study of Mus musculus with 6 samples.

Results

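Insulin-like growth factor (IGF) transcripts were measured by stranded, paired-end mRNA sequencing of whole retinas from 2-month-old mice. The set comprised 10 genes, matched by symbol among the 55421 genes of the count table: the ligands *Igf1* and *Igf2*, the receptors *Igf1r* and *Igf2r*, and the binding proteins *Igfbp2*, *Igfbp3*, *Igfbp4*, *Igfbp5*, *Igfbp6* and *Igfbp7*. The 3 control retinas (YR612, YR613 and YR615) were Yapflox/flox, with both copies of the Hippo pathway effector *Yap* flanked by loxP sites. The 3 *Yap* cKO retinas (YR711, YR713 and YR714) were Yapflox/flox;RaxCreERT2, and thus carried in addition a tamoxifen-inducible Cre driven by *Rax*, which in the postnatal eye acts in Müller glia and in the non-pigmented epithelium of the ciliary body. All 6 samples came from mice given 4OH-T, the active form of tamoxifen, at P10 and P14. The methods call them independent biological replicates, but whether each retina came from a different animal is not stated in the sources used here, and the errors and p-values measure the spread between these retinas. Because controls had no Cre, the action of Cre itself and the loss of *Yap* cannot be told apart. Neither sex nor litter of a retina is given in the sources used here. Total counts were 24261799, 26937920 and 28641877 in controls YR612, YR613 and YR615, and 25972334, 35067068 and 26170371 in *Yap* cKO YR711, YR713 and YR714.

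IGF1 and IGF2 are secreted peptides that signal through the IGF1 receptor, a tyrosine kinase that recruits IRS and SHC proteins and switches on the PI3K, AKT and mTOR relay and the RAS pathway. The IGF2 receptor, also the mannose-6-phosphate receptor, takes IGF2 to lysosomes. Secreted binding proteins hold IGFs outside the cell and so limit or prolong their action, and the proteases PAPP-A and PAPP-A2 free IGFs by cutting some of these carriers. Stanniocalcins bind and block both proteases. In the retina, IGF signalling is known as a survival and growth signal for neurons and vessels.

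What sets the binding proteins apart as a family is an N-terminal domain held together by cysteines, and the coding bases of its central motif are shown because they separate 4 of the 6 genes from the other pair. The pattern searched was glycine, cysteine, any residue, cysteine, cysteine, any 2 residues and cysteine, in the coding sequence of the first GENCODE transcript of each gene (build GRCm38). It was found in exon 1 of 4 genes, on the plus strand at chr1:72824778-72824801 for *Igfbp2* and chr11:99041650-99041673 for *Igfbp4*, and on the minus strand at chr11:7213566-7213589 for *Igfbp3* and chr1:72873966-72873989 for *Igfbp5*. Capitals mark the cysteine codons, 5′ to 3′.
*Igfbp2*: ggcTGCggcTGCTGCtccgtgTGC
*Igfbp3*: ggcTGCggcTGCTGCctgactTGC
*Igfbp4*: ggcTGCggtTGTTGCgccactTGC
*Igfbp5*: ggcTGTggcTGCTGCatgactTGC
The pattern had no match in the coding sequence of *Igfbp6*, which encodes an IGF2-preferring carrier, or of *Igfbp7*, which encodes a relative with low affinity for IGFs. A stretch with the same cysteines but another residue in place of the glycine would not match. The missing match thus does not show that either gene lacks these cysteines. *Igfbp2* and *Igfbp5* point towards each other on chromosome 1.

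*Yap1* itself checked the labels. Its level in TPM (counts divided by gene length and scaled to a fixed sum per library) was 9.48, 9.52 and 9.83 in the controls and 3.99, 3.76 and 3.94 in the *Yap* cKO retinas. This was a log2 fold change of -1.36 ± 0.09 (SE) with an adjusted p of 0.000282 in edgeR's quasi-likelihood test over the 16575 genes tested. The whole retina also holds cells in which Cre does not act.

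In both groups the retina held far more mRNA for IGF carriers than for IGFs, compared per gene length. As mean ± SD over 3 retinas, binding protein transcripts summed to 186 ± 14.3 TPM in controls against 188 ± 13.6 TPM after *Yap* deletion. Both ligands together summed to 13.0 ± 2.30 and 16.8 ± 1.54 TPM, and both receptors to 43.5 ± 6.99 and 52.9 ± 6.44 TPM. In bulk tissue, fewer cells of a type and less RNA per cell cannot be told apart.

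The order of the levels in controls ran from *Igfbp7* (51.9 ± 8.37 TPM) through *Igfbp2*, *Igfbp4*, *Igfbp5* and *Igf1r* (32.1 ± 5.42 TPM), and each of these 5 overlapped its neighbour in that order. A step then separated *Igf1r* from *Igf1* and *Igf2r* (11.6 ± 2.30 and 11.5 ± 1.58 TPM, overlapping each other). *Igfbp6* (8.84 ± 1.55 TPM), *Igfbp3* (1.93 ± 0.457 TPM) and *Igf2* (1.43 ± 0.0432 TPM) followed, each below its upper neighbour in every control, though the level of *Igf2* is understated, as described with its values. In *Yap* cKO retinas the same 5 genes again came first and overlapped in sequence, now in the order *Igfbp2* (47.8 ± 12.4 TPM), *Igfbp7*, *Igfbp5*, *Igf1r* and *Igfbp4* (38.5 ± 4.05 TPM). The lower 5 kept the order they had in controls. *Igf2* and *Igfbp3* did not reach 5 TPM in either group.

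Before the comparison, the retinas were examined for differences that the groups did not explain. Relative expression leaned on transcript length to a different degree in each retina. Across the 16575 genes, Spearman's correlation between exonic length and expression relative to the mean of all retinas was -0.41 in control YR612 and -0.41 in control YR615, but 0.17 in control YR613. It was 0.40 in *Yap* cKO YR711 and 0.39 in *Yap* cKO YR713, but -0.15 in *Yap* cKO YR714. Control YR613 and *Yap* cKO YR714 thus stood apart from the other retinas of their groups. The log2 fold change between groups had a Spearman's correlation of 0.39 with length, and of 0.03 once each retina's offsets were corrected for length. These are descriptions across genes, which are not independent replicates. *Igf1r* is the longest transcript of the set (16791 exonic bases) and *Igfbp6* and *Igfbp7* are the shortest (1112 and 1209).

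None of the 10 genes met the criteria of differential expression (adjusted p of at most 0.05, fold change of at least 1.5 and mean TPM of at least 5 in 1 group), against a background of 0.796% of all genes tested. All 10 passed the filter on low counts. None reached an adjusted p of 0.05 by itself, a level reached by 1.49% of all genes. At an unadjusted p under 0.05, edgeR listed 2 of the 10, *Igf1* and *Igfbp5*, both higher in *Yap* cKO retinas, where the background was 21.4%, and DESeq2 also listed 2. The TPM of both groups did not overlap for *Igf1*, higher in *Yap* cKO retinas (background 15.2%), and for *Igf2*, lower (background 9.04%). The 95% interval of the fold change lay within 1.5-fold in either direction for 6 of the 10 genes, close to the 63.9% of all genes. The median log2 fold change of the 10 was 0.07, beside 0.00168 over all genes, and -0.00673 with the length correction.

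**Figure D1:**
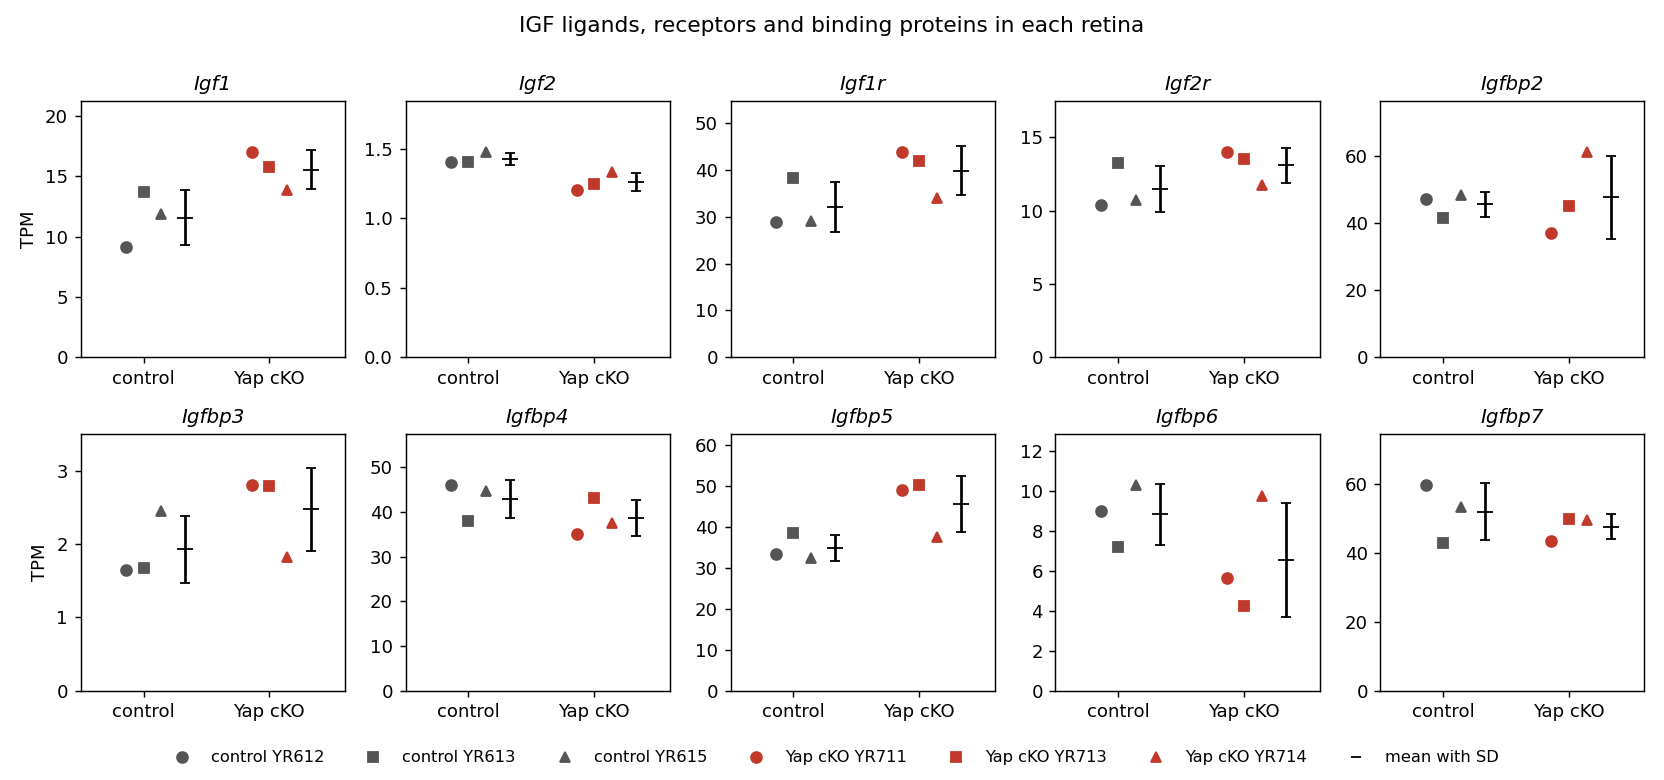
TPM (vertical axes, from 0) of the 10 IGF genes in each of the 3 control and 3 *Yap* cKO retinas, 1 symbol per retina, with the mean and SD of each group beside the points. The *Igf1* points of the *Yap* cKO retinas (13.8 to 17.0 TPM) sit above all controls (9.14 to 13.7 TPM), the *Igf2* points sit below, and the other 8 genes overlap between groups.

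Of the ligands, *Igf1* (chr10:87858265-87937042, plus strand) measured 9.14, 13.7 and 11.9 TPM in controls YR612, YR613 and YR615, while retinas YR711, YR713 and YR714 had 17.0, 15.7 and 13.8 TPM. Every *Yap* cKO retina was above every control, although the lowest *Yap* cKO value and the highest control value nearly touched. Its log2 fold change was 0.37 ± 0.13 (SE, 95% interval 0.09 to 0.65), with an adjusted p of 0.151. With the length correction it was 0.23 (adjusted p = 0.184). The adjusted p was 0.0387 without control YR613 and between 0.0739 and 0.409 without any other retina, and without the low-count filter it was 0.0158. As each retina was left out the log2 fold change ranged from 0.24 to 0.49, under the 0.58 of a 1.5-fold change.

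*Igf2* (chr7:142650766-142666816, minus strand), the fetal growth factor of an imprinted locus, had the lowest TPM of the 10. It measured 1.40, 1.40 and 1.48 TPM in controls and 1.20, 1.24 and 1.33 TPM in *Yap* cKO retinas, from 44 to 65 counts per retina. Each *Yap* cKO retina was below each control, on few counts. The log2 fold change was -0.24 ± 0.16 (95% interval -0.60 to 0.12, adjusted p = 0.403). This TPM is below what its transcripts would give, since 62.8% of its exonic bases are shared with *Gm49394*, an annotated gene on the same strand, and fragments in shared exons were not assigned. Its place below *Igfbp3* is therefore uncertain. The antisense gene *Igf2os* shares 98 exonic bases with it on the other strand.

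Both receptors were above all controls in 2 of the 3 *Yap* cKO retinas. *Igf1r* (chr7:67952827-68233668, plus strand) measured 28.9, 38.3 and 29.0 TPM in controls and 43.8, 41.8 and 33.9 TPM in *Yap* cKO retinas. The groups overlapped, with control YR613 above *Yap* cKO YR714. The log2 fold change was 0.26 ± 0.12 (95% interval -0.01 to 0.52, adjusted p = 0.248), and it turned to -0.03 (95% interval -0.16 to 0.10) with the length correction.

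*Igf2r* (chr17:12682406-12769664, minus strand) measured 10.4, 13.3 and 10.7 TPM in controls and 14.01, 13.5 and 11.7 TPM in *Yap* cKO retinas, again with control YR613 above *Yap* cKO YR714. Its log2 fold change of 0.14 ± 0.10 (adjusted p = 0.455) became 0.01 with the length correction, and ranged from 0.09 to 0.23 with a retina left out. For both receptors the retinas ranked much as they did by their lean on length, with YR612 and YR615 lowest and YR711 and YR713 highest.

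*Igfbp5* (chr1:72857932-72874884, minus strand), which encodes a carrier that binds matrix and is cut by PAPP-A and PAPP-A2, had the smallest p of the 10. It measured 33.4, 38.4 and 32.4 TPM in controls and 48.9, 50.1 and 37.5 TPM in *Yap* cKO retinas. *Yap* cKO YR711 and YR713 were above all controls, and *Yap* cKO YR714 lay within the control range. The log2 fold change was 0.33 ± 0.11 (95% interval 0.09 to 0.58, adjusted p = 0.141), and with the length correction it was 0.28 (95% interval 0.08 to 0.49, adjusted p = 0.127). Without *Yap* cKO YR714 the adjusted p was 0.0316 at a log2 fold change of 0.44, and without each other retina it ranged from 0.0701 to 0.447.

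*Igfbp2* (chr1:72824503-72852474, plus strand), a carrier of glia and epithelia, measured 47.2, 41.5 and 48.4 TPM in controls and 37.0, 45.0 and 61.3 TPM in *Yap* cKO retinas. The *Yap* cKO retinas held both the lowest and the highest value of the 6. Its log2 fold change of 0.01 ± 0.18 (95% interval -0.39 to 0.41, adjusted p = 0.979) took either sign as retinas were left out, from -0.23 without *Yap* cKO YR714 to 0.16 without *Yap* cKO YR711.

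*Igfbp6* (chr15:102144362-102149511, plus strand) had the largest estimate among the 10 and the widest interval. It measured 8.996, 7.22 and 10.3 TPM in controls and 5.63, 4.24 and 9.74 TPM in *Yap* cKO retinas, from 40 to 88 counts. *Yap* cKO YR711 and YR713 lay below all controls, and *Yap* cKO YR714 lay among them. The log2 fold change was -0.51 ± 0.30 (95% interval -1.19 to 0.17, adjusted p = 0.345), and with the length correction it was -0.39 (adjusted p = 0.426). In the uncorrected fit it was -0.94 without *Yap* cKO YR714 (adjusted p = 0.0519) and -0.25 without *Yap* cKO YR713.

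The remaining carriers overlapped between groups. *Igfbp4* (chr11:99041244-99054392, plus strand), another PAPP-A substrate, measured 45.9, 38.0 and 44.6 TPM in controls and 35.1, 43.0 and 37.6 TPM in *Yap* cKO retinas. Its log2 fold change was -0.21 ± 0.11 (adjusted p = 0.303). *Igfbp7* (chr5:77349240-77408041, minus strand), known from vessels, measured 59.5, 43.0 and 53.3 TPM against 43.4, 49.7 and 49.5 TPM. The log2 fold change of -0.19 ± 0.15 (adjusted p = 0.467) shrank to -0.05 with the length correction. With a retina left out it ranged from -0.32 (without control YR613) to -0.05 (without control YR612). *Igfbp7* shares 85 exonic bases with *Polr2b* on the other strand. *Igfbp3* (chr11:7206086-7213923, minus strand), the main carrier in blood, measured 1.65, 1.68 and 2.45 TPM against 2.80, 2.79 and 1.82 TPM, a difference of 0.30 ± 0.24 on the log2 scale (adjusted p = 0.478). That difference ranged from 0.19 to 0.51 as each retina was left out.

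**Figure D2:**
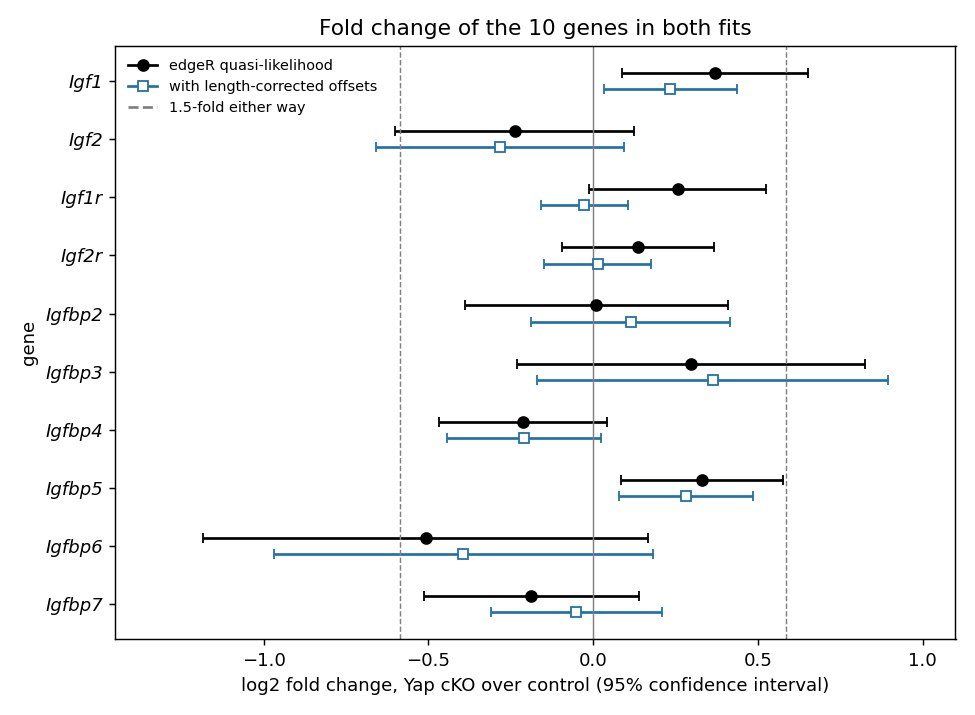
Log2 fold change of *Yap* cKO over control (horizontal axis) with its 95% confidence interval for each of the 10 genes, from the edgeR quasi-likelihood fit (filled circles) and from the same fit with length-corrected offsets (open squares); dashed lines mark a 1.5-fold change. *Igf1r* moves from 0.26 to -0.03 between both fits, *Igfbp5* from 0.33 to 0.28, and *Igfbp6* has the widest interval, from -1.19 to 0.17 in the first fit.

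Within the binding protein transcripts, 4 genes made up nearly all of the sum. In controls *Igfbp7* took 27.8% ± 2.48, *Igfbp2* 24.6% ± 0.660, *Igfbp4* 23.0% ± 0.543 and *Igfbp5* 18.8% ± 3.28 of their TPM (SD over 3 retinas). After deletion the shares were 25.2% ± 0.251, 25.2% ± 5.13, 20.5% ± 1.53 and 24.3% ± 4.79. The share of *Igfbp5* was 17.0%, 22.6% and 16.9% in controls and 28.3%, 25.7% and 19.01% in *Yap* cKO retinas, which overlapped. *Igfbp4* held a smaller share in each *Yap* cKO retina (20.3%, 22.1% and 19.03%) than in each control (23.3%, 22.4% and 23.3%). Shares within a retina depend on each other, and the TPM of *Igfbp4* itself overlapped between groups (adjusted p = 0.303). The shares were not tested.

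**Figure D3:**
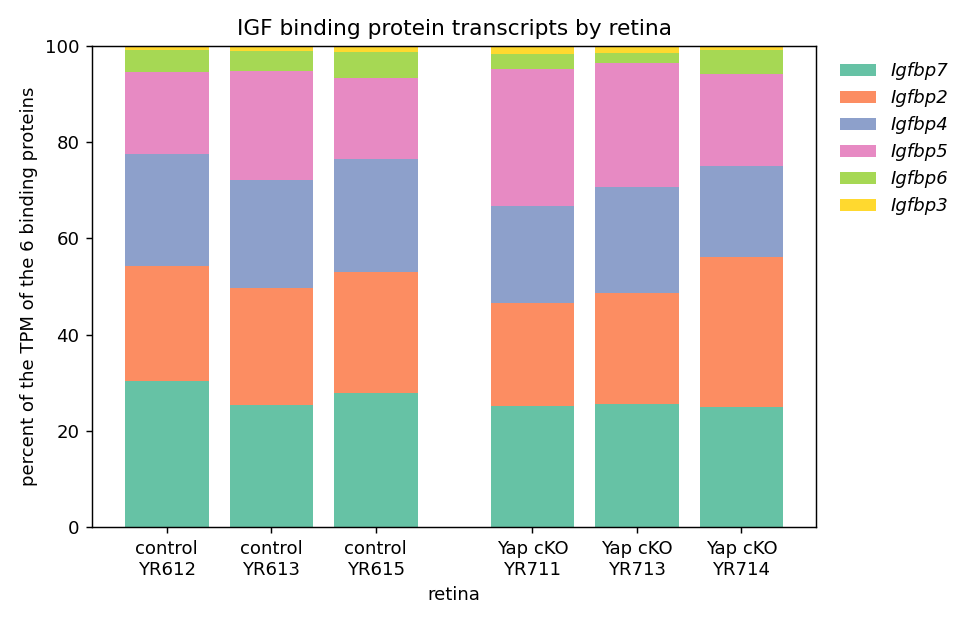
Stacked shares (vertical axis, percent of the summed TPM of the 6 binding proteins) in each retina, controls on the left and *Yap* cKO on the right, 1 color per gene. *Igfbp5* holds 28.3% and 25.7% in *Yap* cKO YR711 and YR713 but 19.01% in *Yap* cKO YR714, where *Igfbp2* holds 31.0%.

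The genes whose profile over the 6 retinas was most like that of *Igfbp5* were *Tarbp1*, *Rapgef2*, *Gatad2b*, *Il6st* and *Ablim1*. Their centred log2(TPM + 0.1) profiles differed from it by a root mean square of 0.0306 to 0.0463, the smallest among 11993 genes with a mean of at least 5 TPM. *Il6st*, which encodes the shared receptor chain of the interleukin-6 family, measured 39.2, 49.0 and 39.8 TPM in controls and 59.2, 59.4 and 47.3 TPM in *Yap* cKO retinas. All 5 had longer exonic sequence (6383 to 14051 bases) than *Igfbp5* (6006 bases).

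The wider pathway was described with 6 lists of 68 genes, of which 57 passed the low-count filter. Of these, 3 rose (*Pappa2*, *Stc2* and *Shc3*) and 1 fell (*Ccn2*) by the criteria of differential expression, and 6 reached an adjusted p of 0.05, beside the 0.796% and 1.49% of all genes. The lists were chosen with earlier results of these data known, so counts from them cannot show an excess or a lack against all genes. The median log2 fold change over the 57 was 0.09, and 0.05 with the length correction.

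Among the 8 measured genes of carriers and proteases, 2 rose by the criteria, *Pappa* rose at the adjusted p alone, and none fell. *Pappa2*, which encodes the protease PAPP-A2, measured 6.52, 9.92 and 7.66 TPM in controls and 14.6, 13.95 and 12.2 TPM in *Yap* cKO retinas. All *Yap* cKO retinas were above all controls, with a log2 fold change of 0.70 ± 0.13 (adjusted p = 0.0363). The length correction left 0.56, under 1.5-fold, at an adjusted p of 0.0114.

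*Pappa*, which encodes PAPP-A, was scarcer, at 1.11, 1.61 and 1.11 TPM in controls and 2.21, 2.40 and 2.32 TPM in *Yap* cKO retinas. The groups did not overlap, and the log2 fold change was 0.80 ± 0.16 (adjusted p = 0.0442), at a level under the TPM minimum. *Stc2*, which encodes the stanniocalcin that inhibits both proteases, measured 2.14, 2.20 and 1.96 TPM in controls and 3.21, 6.44 and 6.73 TPM in *Yap* cKO retinas. It rose by 1.33 ± 0.27 on the log2 scale (adjusted p = 0.0451), with the smallest rise in *Yap* cKO YR711.

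These calls depended on individual retinas. Those of *Pappa2* and *Pappa* were lost without control YR612 or YR615 and without *Yap* cKO YR711 or YR713 (adjusted p up to 0.184 and 0.221), and that of *Stc2* without control YR612 or YR615 or *Yap* cKO YR713 and by limma-voom (up to 0.214). Without *Yap* cKO YR714 *Stc2* fell under the TPM minimum. The log2 fold changes themselves ranged from 0.59 to 0.86 for *Pappa2*, from 0.70 to 0.98 for *Pappa* and from 1.14 to 1.59 for *Stc2* as each retina was left out. *Htra1*, a secreted serine protease and the most abundant gene of the list, was at 119 TPM in controls and 126 TPM in *Yap* cKO retinas (log2 fold change 0.02 ± 0.10, adjusted p = 0.925). *Stc1*, the other stanniocalcin, was at 10.8 and 11.6 TPM (adjusted p = 0.894).

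Promoters are shown for *Igfbp5*, the gene with the smallest p of the 10, and for *Pappa2* and *Stc2*, the 2 carrier regulators that rose by the criteria, as the 250 bases before the start site in RefSeq (build GRCm38.p6), 5′ to 3′ along the gene. TEAD factors, the DNA-binding partners of YAP, recognise GGAATG, which reads CATTCC on the opposite strand, and capitals mark it. The *Igfbp5* stretch is chr1:72874866-72875115 (minus strand), that of *Pappa2* chr1:158958176-158958425 (minus strand) and that of *Stc2* chr11:31370062-31370311 (minus strand).
*Igfbp5*: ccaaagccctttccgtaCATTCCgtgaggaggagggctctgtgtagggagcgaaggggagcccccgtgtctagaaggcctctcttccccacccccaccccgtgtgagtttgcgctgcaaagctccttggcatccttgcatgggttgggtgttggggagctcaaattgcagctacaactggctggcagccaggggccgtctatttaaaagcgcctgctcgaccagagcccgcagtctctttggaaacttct
*Pappa2*: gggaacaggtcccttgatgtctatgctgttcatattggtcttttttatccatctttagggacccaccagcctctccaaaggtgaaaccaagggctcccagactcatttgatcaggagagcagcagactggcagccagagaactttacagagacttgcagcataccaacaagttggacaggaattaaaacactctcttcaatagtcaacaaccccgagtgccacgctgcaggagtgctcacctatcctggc
*Stc2*: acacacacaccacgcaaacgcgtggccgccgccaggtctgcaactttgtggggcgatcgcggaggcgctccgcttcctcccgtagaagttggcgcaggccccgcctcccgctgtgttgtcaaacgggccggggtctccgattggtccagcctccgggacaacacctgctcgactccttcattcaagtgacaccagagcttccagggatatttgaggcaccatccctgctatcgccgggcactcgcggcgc
The motif occurred once in the *Igfbp5* promoter, with its first base 233 bases before the start. All 10 IGF genes had an entry, with 14 promoters in all, and the motif was in 4 of them, 3 of *Igf2* and 1 of *Igfbp5*. Of all 32851 promoters of the same 300 bases (250 before to 50 after the start), 14.7% held it on either strand. A match of 6 bases is a description of the sequence, and binding was not measured.

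**Figure D4:**
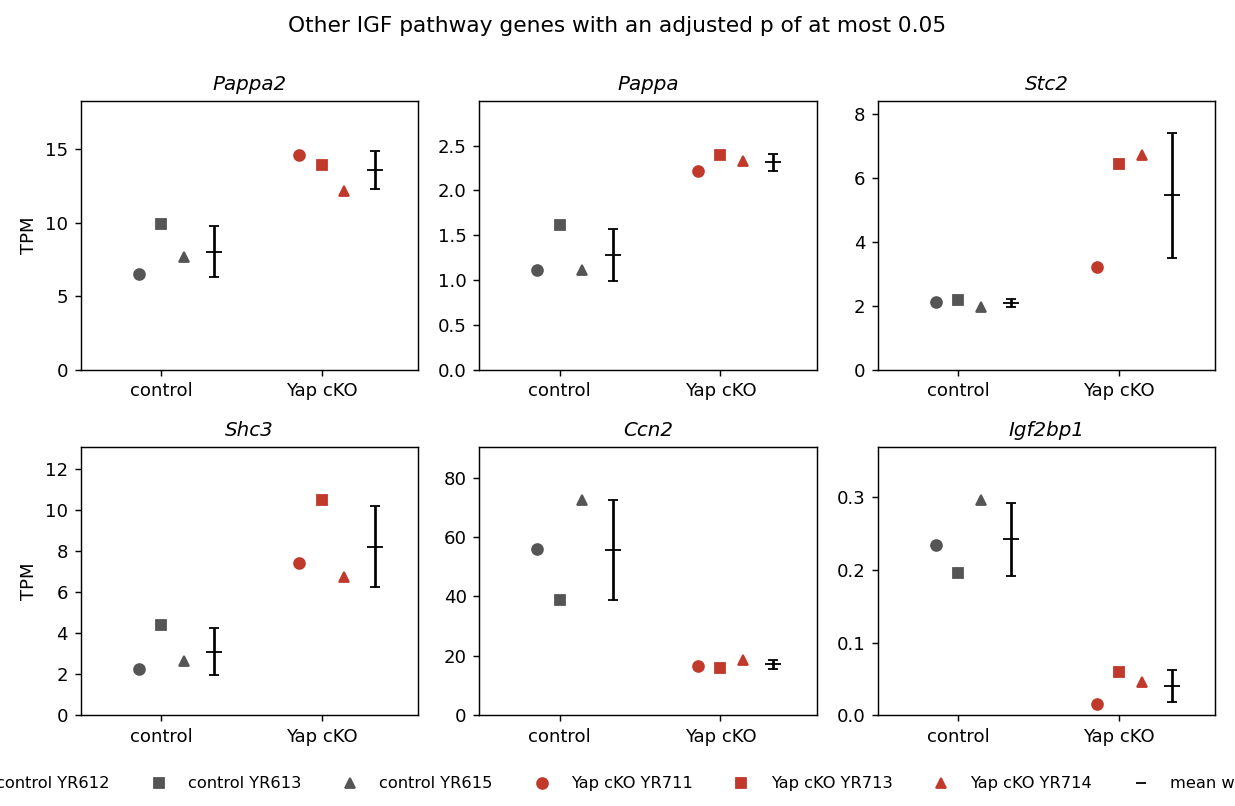
TPM (vertical axes, from 0) in each retina of the 6 other IGF pathway genes that reached an adjusted p of 0.05, 1 symbol per retina, with the mean and SD of each group. The groups do not overlap in any panel: *Pappa2*, *Pappa*, *Stc2* and *Shc3* are higher in *Yap* cKO retinas, and *Ccn2* (38.7 to 72.4 against 16.1 to 18.8 TPM) and *Igf2bp1* are lower.

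Among the receptor substrates and adaptors, 1 of 14 measured genes rose and none fell. *Shc3*, which encodes a neuronal SHC adaptor that links receptor kinases to RAS, measured 2.28, 4.39 and 2.63 TPM in controls and 7.43, 10.5 and 6.76 TPM in *Yap* cKO retinas. All *Yap* cKO retinas exceeded all controls, by 1.36 ± 0.24 on the log2 scale (adjusted p = 0.0314), and the value was 1.36 with the length correction too. The call was lost without control YR612 or YR615 or *Yap* cKO YR713, where the adjusted p rose to at most 0.164. The log2 fold change itself ranged from 1.15 to 1.67 as each retina was left out.

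The abundant adaptors gave no call. *Grb2*, which bridges receptors to the RAS activator SOS, was at 107 and 117 TPM (adjusted p = 0.597), *Ptpn11*, a phosphatase, at 100.2 and 113 TPM (adjusted p = 0.473), and *Sh2b1* at 60.4 and 64.8 TPM (adjusted p = 0.820).

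In the PI3K, AKT and mTOR relay none of 19 measured genes reached an adjusted p of 0.05 in edgeR's test. At an unadjusted p under 0.05 there were 5, all higher, beside 21.4% of all genes, and the 95% interval lay within 1.5-fold for 18 of the 19, beside 63.9%. The median log2 fold change of the list was 0.11, and 0.03 with the length correction. *Akt1*, a kinase of the relay, was at 116 TPM in controls and 111 TPM in *Yap* cKO retinas (log2 fold change -0.13 ± 0.08, adjusted p = 0.366). *Pik3r3*, a regulatory subunit of PI3K, was at 98.4 and 115 TPM (adjusted p = 0.403).

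Insulin and related receptors gave no call among 4 measured genes. *Insr*, the insulin receptor, measured 24.6, 31.9 and 25.1 TPM in controls and 36.4, 38.4 and 34.4 TPM in *Yap* cKO retinas, without overlap. Its log2 fold change of 0.37 ± 0.10 (adjusted p = 0.0947) was 0.14 with the length correction (adjusted p = 0.273), a shift like that of *Igf1r*. *Sort1*, a sorting receptor, was at 116 and 146 TPM (adjusted p = 0.141) and *Lrp2*, an endocytic receptor, at 3.86 and 3.99 TPM (adjusted p = 0.996). The insulin genes did not enter the test, and *Ins1* had a count of 0 in all 6 retinas.

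Among 7 genes for IGF2 mRNA-binding proteins or for imprinted RNAs and factors, none met the criteria. *Igf2bp1*, which encodes an RNA-binding protein and is named here because it reached an adjusted p of 0.0297, had 15, 13 and 22 counts in controls and 1, 5 and 3 in *Yap* cKO retinas. Each *Yap* cKO retina was below each control, at no more than 0.296 TPM in any retina, and the adjusted p rose to as much as 0.155 without control YR612 or YR615 or *Yap* cKO YR711 or YR713. The log2 fold change was -2.54, and ranged from -2.94 to -2.22 as each retina was left out. *Plagl1*, an imprinted zinc finger gene, was at 9.05 and 12.5 TPM (log2 fold change 0.41 ± 0.12, adjusted p = 0.115). *Igf2bp2* was at 3.23 and 2.56 TPM (adjusted p = 0.198) and *Airn*, the antisense RNA of *Igf2r*, at 1.74 and 1.89 TPM (adjusted p = 0.901).

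Of 5 measured genes for other proteins with an IGFBP domain, 1 fell and none rose. *Ccn2*, a matricellular protein gene and an established YAP target, measured 55.9, 38.7 and 72.4 TPM in controls and 16.6, 16.1 and 18.8 TPM in *Yap* cKO retinas. It fell by 1.76 ± 0.21 on the log2 scale (adjusted p = 0.00479), and the call held as each retina was left out. *Crim1*, a membrane protein gene, was at 40.7 and 37.6 TPM (adjusted p = 0.315). *Ccn4*, another matricellular gene, was at 22.2 and 33.3 TPM (log2 fold change 0.53 ± 0.12, adjusted p = 0.0632), and *Kazald1*, which encodes a secreted IGFBP relative, was at 12.5 and 9.04 TPM (adjusted p = 0.0892). *Ccn4* reached an adjusted p of 0.0378 with length-corrected offsets, and met the criteria without control YR613 or without *Yap* cKO YR711. *Kazald1* met them without *Yap* cKO YR714. *Ccn1*, a YAP target named here after its values were seen, was at 6.11 and 2.44 TPM (log2 fold change -1.38 ± 0.31, adjusted p = 0.0624), and it met the criteria with DESeq2, the edgeR likelihood ratio test, no low-count filter and length-corrected offsets.

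Markers of retinal cells were present in every retina, with *Nefl* of inner neurons at 884 TPM in controls and 935 in *Yap* cKO retinas, and *Glul* of Müller glia at 3017 and 2711. The 8 Müller glia markers summed to 5676 TPM in controls and 5248 TPM after deletion, and the 7 photoreceptor markers to 71113 and 67138 TPM, both with overlap. Within the Müller glia list, *Rlbp1* was lower in every *Yap* cKO retina (936 and 760 TPM, adjusted p = 0.0540). *Kcnj10* was higher in every one (72.0 and 91.1 TPM, adjusted p = 0.126), and the other markers of that list overlapped. Marker lists of tissue next to the neural retina differed between retinas. The 6 markers of the ciliary non-pigmented epithelium summed to 106 TPM in controls and 50.1 TPM in *Yap* cKO retinas, led by *Optc* (48.0 and 4.56 TPM). *Col9a2* also fell (18.3 and 8.79 TPM, adjusted p = 0.0334), and *Zic1* (6.33 and 4.79 TPM) and *Msx1* (0.506 and 0.126 TPM) were lower in every *Yap* cKO retina. *Col9a1* overlapped between groups (27.1 and 23.8 TPM), and *Wnt2b* was higher in every *Yap* cKO retina (5.46 and 8.03 TPM). The 6 melanin genes, led by *Dct*, summed to 77.2 and 32.0 TPM.

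The 6 markers of retinal pigment epithelium, led by *Ttr* (467 and 296 TPM), summed to 654, 721 and 684 TPM in controls. In the *Yap* cKO retinas they summed to 202 (YR711), 371 (YR713) and 706 TPM (YR714). *Yap* cKO YR711 and YR713 were thus low, and *Yap* cKO YR714 was among the controls. *Igfbp2* ranked the *Yap* cKO retinas in the same order, and *Igfbp6* was likewise lowest in YR711 and YR713. The controls did not follow, since YR613 had their highest sum (721 TPM) and their lowest *Igfbp2* and *Igfbp6* (41.5 and 7.22 TPM). Both genes are short (1847 and 1112 exonic bases). Only YR711, YR713 and YR613 had a positive correlation of relative expression with length (0.40, 0.39 and 0.17). The part of length in these ranks was not tested. No marker of these 3 lists was at 0 in any retina. Their part in the values of the IGF genes was not tested.

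Fibroblast markers, led by *Pdgfra*, summed to 12.3 and 9.18 TPM, with *Lum* at 0 in at least 1 retina. The lowest control (10.82 TPM) was barely above the highest *Yap* cKO retina (10.76 TPM). Most of the difference was *Col1a2* (3.52 and 0.811 TPM, adjusted p = 0.00236), while *Pdgfra* was at 7.33 and 7.38, *Col1a1* at 0.268 and 0.296 and *Col3a1* at 0.487 and 0.514 TPM. Lens markers, led by *Crybb1*, summed to 6.93 and 3.90 TPM, with *Mip*, *Lim2* and *Crygs* at 0 in at least 1 retina. The lists of endothelial cells (131 and 120 TPM, led by *Cldn5*), pericytes (91.1 and 93.2 TPM, *Rgs5*), microglia (128 and 120 TPM) and astrocytes (118 and 106 TPM, *S100b* over all retinas and *Gfap* in controls) overlapped between groups. Within the astrocyte list *Aldh1l1* fell (16.2 and 9.74 TPM, adjusted p = 0.00437), *Slc14a1* was lower in every *Yap* cKO retina, and *S100b* was higher in every one. The 9 inner neuron markers summed to 1706 TPM in controls and 1882 TPM in *Yap* cKO retinas, without overlap. In that list *Grm6*, a glutamate receptor gene of ON bipolar cells, rose (54.9 and 78.3 TPM, adjusted p = 0.0249, under 1.5-fold), and *Trpm1*, their transduction channel gene, was higher in every *Yap* cKO retina (42.0 and 68.1 TPM, adjusted p = 0.0772).

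**Figure D5:**
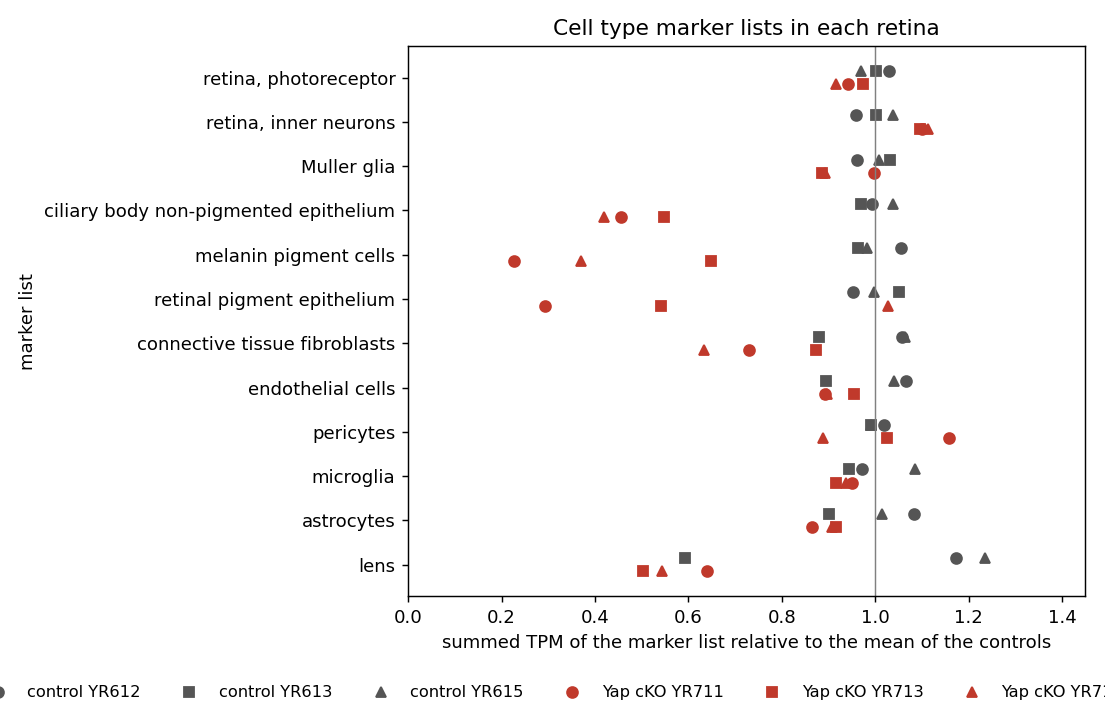
Summed TPM of each of the 12 marker lists (vertical axis) in each retina, divided by the mean of the controls (horizontal axis, from 0), 1 symbol per retina. The ciliary, melanin and fibroblast lists are lower in all *Yap* cKO retinas than in all controls, while the pigment epithelium list is low in *Yap* cKO YR711 and YR713 (202 and 371 TPM) and not in *Yap* cKO YR714 (706 TPM).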

How the data were processed

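Per the submitters' processing notes, the authors aligned reads to mouse GRCm38 with STAR 2.7.3a. They deposited raw counts per gene, with an exonic length, made per the file header with featureCounts 1.6.2 (Ensembl release 98, reverse strand setting 2); the methods name another release of the same build. Of 55421 genes, 55154 were paired with a symbol. TPM was computed here from counts and lengths. Counts were tested with edgeR 4.0.16 (R 4.3.3): filterByExpr by group (16575 genes kept), TMM, quasi-likelihood F test, Benjamini-Hochberg adjustment. Standard errors came from the fold change and F, and intervals are 95%. Criteria were the study's. DESeq2 1.42.0 and limma 3.58.1 served as alternatives. The length-corrected fit added loess offsets (span 0.3) per retina. The fit was tested on simulated data. An exact permutation test of 3 against 3 cannot go below 0.1 and was not used. Named beside the 10 genes were pathway genes meeting the criteria, up to 3 others per list by highest TPM, each marker list's most abundant gene and genes at 0, genes overlapping the 10, and the 5 profiles most like that of the gene with the smallest p. Members and lists were chosen with earlier results of these data known. Gene coordinates are those of the count table. A few genes that this rule names are not reported here.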

Additional observations from a re-analysis of the deposited data

How the results depend on the processing

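The count of IGF genes meeting the criteria was 0 under all 15 alternatives. The count at an adjusted p of 0.05, 0 in the fit reported, was 2 without the low-count filter (*Igf1* and *Igfbp5*), where 30129 genes were tested, and 0 to 1 with a retina left out (*Igf1* without control YR613, *Igfbp5* without *Yap* cKO YR714). Many more genes of any kind reached that level in these same fits. They numbered 1865 of 30129 without the filter, 1490 of 16858 without control YR613 and 992 of 16841 without *Yap* cKO YR714. The fit reported had 247 of 16575. *Igf1r* reversed with length-corrected offsets (-0.027), and *Igfbp2* reversed with library size only (-0.00362), with limma-voom (-0.021), and with a retina left out (-0.23 to 0.16). The cause was not tested beyond the length correction. Pathway genes meeting the criteria numbered 4, between 3 and 6 under other settings and between 1 and 6 with a retina left out. Only *Ccn2* remained when YR612, YR615 or YR713 was omitted, and *Pappa2* fell under the fold change minimum with the length correction. Genome-wide, 132 genes met the criteria (35 higher, 97 lower), but 369 without the low-count filter, 263 with DESeq2, 291 with the edgeR likelihood ratio test, 516 without control YR613 (352 higher, 164 lower), 448 without *Yap* cKO YR714 (216 higher, 232 lower), and 38 to 104 without each of the other retinas. *Yap1* ranged from -1.39 to -1.33 with a retina left out. No paired analysis was possible because the groups share no replicate number. At 40 to 88 counts for *Igfbp6*, 34 to 76 for *Igfbp3* and 44 to 65 for *Igf2*, a change of 1.5-fold lay within their intervals. Such a change also lay within the interval of *Igf1* (0.09 to 0.65 on the log2 scale), at 597 to 1357 counts.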
